A study of Rattus norvegicus with 144 samples.

Results

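The semaphorins, their plexin and neuropilin receptors, the Eph receptors and the ephrins are the 53 protein-coding genes described here, out of 45785 genes measured in rat brain. They were taken by symbol alone, as every protein-coding gene named Sema3 to Sema7, Plxna to Plxnd, Nrp, Epha, Ephb, Efna or Efnb with its letter or number, a rule that uses no measured value. The choice to study this set was made with earlier results of these data known. The set holds 20 semaphorins (7 of class 3, 6 of class 4, 2 of class 5, 4 of class 6 and 1 of class 7), 9 plexins, 2 neuropilins, 9 EphA receptors, 5 EphB receptors, 5 ephrin-A ligands and 3 ephrin-B ligands.

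Semaphorins are secreted or membrane-bound ligands that steer growing axons and, in the mature brain, restrain branching and shape synapses. Class 3 members are secreted and bind neuropilins, which pass the signal on through class A plexins, while most membrane-bound classes bind plexins directly. Eph receptors are receptor tyrosine kinases whose ephrin ligands stay on the surface of the neighbouring cell, so both cells can receive a signal. In cortex both systems set up long-range connections early and later act at dendritic spines, in myelinating glia and in blood vessels.

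RNA was sequenced from the anterior cingulate cortex, a midline frontal region, of Long Evans rats, with 69 libraries from females and 75 from males. Prenatally, 3 conditions were used: ethanol exposure (PAE), pair feeding (PF) and a liquid diet taken by free choice (FCL). During adolescence the offspring were given either alcohol (AAE) or water as vehicle (VEH). Tissue was taken at postnatal day 42, a day after the last adolescent exposure, from the rats called adolescent here, or at postnatal day 90 with no further challenge from those called adult. Sex, prenatal condition, adolescent condition and age together make 24 groups of 4 to 7 libraries, and the sides compared by age hold 34 adolescent and 35 adult females and 39 adolescent and 36 adult males. Only the PF VEH and FCL VEH groups had no ethanol or alcohol at any stage, and each age or sex comparison averages over all 6 treatments. The labels used name no dose, litter or animal, so p-values measure the spread between libraries.

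Library totals ran from 10569296 to 34370169 counts. Each of the 366 possible within-group pairs of libraries differed in its counts, and the closest pair differed by a chi-square of 4.84 per gene. Markers of cortical excitatory neurons, 8 of 8 measured, summed to medians between 6437 and 6628 CPM (counts scaled to library size) in the 4 combinations of sex and age, and none of them was at 0. In all, 5 libraries stood apart and were kept. The library labelled Female PF AAE adolescent replicate 4 had 0.993 CPM of the X-inactivation transcript Xist and a summed level of Y-linked genes of 0.331 CPM. The library labelled Male PAE VEH adolescent replicate 4 had 379 CPM of Xist and a Y-linked sum of 27.1 CPM. In libraries that did not stand apart, Xist was at 313 to 738 CPM in females and at most 95.9 in males, and the Y-linked sum at most 13.7 CPM in females and 154.4 to 227.7 in males, so neither library matched the other sex on both measures. Female FCL AAE adult replicate 1 and Male PF VEH adolescent replicate 6 held 258 and 398 CPM of Omp, a marker of olfactory sensory neurons, which belong to the nasal mucosa and not to cortex. Female FCL AAE adult replicate 1 also had mixed sex-linked levels, with 436 CPM of Xist and a Y-linked sum of 46.3 CPM, above the 27.1 CPM of the doubted male library. Female PF VEH adult replicate 6 had counts for 15631 genes, the fewest of any library, and 6 guidance genes were at 0 in it (Efna4, Epha2, Ephb4, Sema3g, Sema4c and Sema5b). In that library 26 of the 53 genes were under 50% of the median of adult females, against at most 4 genes in any library that did not stand apart. Counts of genes that changed are therefore also given without these 5 libraries.

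All 53 genes had enough counts to be tested in the fit of all libraries, and 46 of them had a count above 0 in every library. Levels between genes were compared in FPKM, which divides a count by gene length and library total. The highest medians belonged to Sema7a at 55.7 FPKM, a ligand anchored in the membrane by a lipid, to Ephb6 at 54.2 FPKM, an EphB receptor without kinase activity, and to Epha4 at 40.4 FPKM, the Eph receptor that binds ephrins of both subclasses. Of the 53 genes, 14 had a median of at least 10 FPKM, 34 lay from 1 to 10 FPKM and 5 were under 1 FPKM. Sema6b, the leading class 6 semaphorin, had a median of 25.2 FPKM and exceeded Sema6a (7.17 FPKM) in all but 1 library. Sema4f led class 4 at 17.6 FPKM, Sema5a led class 5 at 15.2 FPKM and Sema3c led class 3 at 11 FPKM. Sema3a, the class 3 ligand of Nrp1, and Sema3b lay at 4.50 and 4.27 FPKM, and Sema3a was the higher of them in 75 libraries and the lower in nearly as many, so they did not differ beyond their spread.

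Among the receptors, Plxna1 (18.99 FPKM) exceeded Plxnb1 (16.8 FPKM) in most libraries, with ranges that overlapped, and Plxnd1, Plxnc1 and Plxna3 lay between 7.20 and 7.57 FPKM with neighbours that changed places in many libraries. Nrp1 at 6.36 FPKM was above Nrp2 at 2.97 FPKM in all but 1 library. Epha4 stood above the next EphA receptor, Epha5 at 14.3 FPKM, in every library, and Epha6 and Epha10 (6.66 and 6.47 FPKM) were not separated, with Epha6 higher in 79 libraries. Efnb2 (15.4 FPKM) and Efna3 (14.7 FPKM) were the highest ephrins. Efna4, Epha2 and Epha1 were the lowest members, at 0.284, 0.211 and 0.103 FPKM. The table gives Efna5 a length of 83090 bases and Plxna4 one of 48131 bases, which lowers their FPKM relative to the other members.

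**Figure D1:**
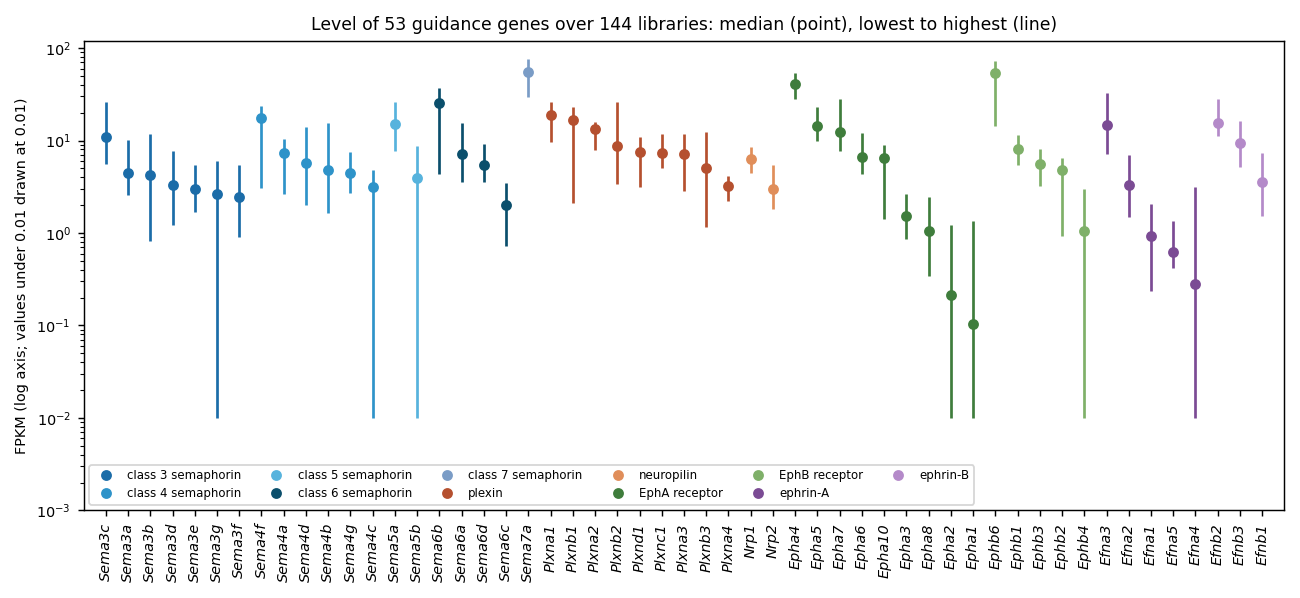
FPKM of the 53 guidance genes (log axis) by family, with the median over all libraries as a point and a line from the lowest to the highest library (a value of 0 is drawn at 0.01). Sema7a, Ephb6 and Epha4 lie highest, and Efna4, Epha2 and Epha1 lowest.

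The age comparison asked which guidance genes differed between the adolescent and the adult cortex within a sex. Tests were edgeR's quasi-likelihood tests on counts, with p-values adjusted over all 20137 genes tested by the Benjamini-Hochberg method, and a gene is given as called where that adjusted p is under 0.05. Fold changes are adult over adolescent on the log2 scale, with 1 standard error (SE). In females 8 of the 53 genes (15.1%) were called, and each was lower in adults: Sema6a, Sema4d, Plxnd1, Sema4f, Epha4, Plxna1, Sema5b and Epha5. The share over all genes tested was 9.02%, made of 4.21% lower and 4.81% higher in adults. In males 15 genes (28.3%) were called against 13.1% of all genes, of which 6.11% were lower and 6.95% higher in adults. Of these, 13 were lower in adults (Sema6a, Sema4d, Plxnd1, Epha8, Ephb1, Epha4, Ephb2, Sema3f, Plxna1, Sema3d, Plxnb3, Sema6d and Efna5), and 2 were higher (Sema3b and Plxnc1).

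The median log2 fold change of the 53 genes was -0.05 in females and -0.11 in males, against -0.001 and -0.008 over all genes tested. Estimates were negative for 34 of 53 genes in females and for 41 of 53 in males. Sema6a, Sema4d, Plxnd1, Epha4 and Plxna1 were called in both sexes. All 15 genes called in males had the same direction in females and all 8 called in females had the same direction in males. Over all genes the same held for 95.4% of the genes called in males and for 96.9% of those called in females, close to the shares of the guidance genes. The difference between the sexes in the age change was tested as an interaction and called 0 of 20137 genes (0%) with edgeR. At an unadjusted p under 0.05 it held 1063 genes (5.28%), 4 of them among the 53 guidance genes, and DESeq2 called 0 guidance genes.

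Without the 5 libraries that stood apart, 12 guidance genes were called in females (12 lower) and 19 in males (17 lower, 2 higher), while the share over all genes rose to 10.3% and 16.9%. The genes added were Ephb2, Sema3c, Sema3f and Sema6b in females and Plxna3, Plxnb1, Sema4f and Sema6b in males, and the 8 and 15 genes named above remained. Without Female PF VEH adult replicate 6 alone, 12 genes were called in females and 20 in males, where 11.3% and 16.4% of all genes were called. With the sexes pooled, a comparison added after the data had been seen, 20 of 53 genes were called, 19 lower and 1 higher in adults, where 22.2% of all genes were called. Epha5 (adjusted p = 0.0508, edgeR) and Plxnc1 (adjusted p = 0.0516, edgeR) were not among these 20. Over the PF VEH and FCL VEH libraries alone, which had neither exposure, 0 guidance genes were called in females and 2 in males (Plxna1 and Sema6a), where 0.513% and 2.06% of all genes were called. In these fewer libraries the median log2 fold change of the 53 genes was -0.07 in females and -0.17 in males, with 32 and 44 estimates below 0. Without the filter on low counts Epha5 and Sema5b in females and Plxnc1 in males were no longer called. In the authors' deposited table of adolescent against adult, 20 of the 53 genes had an adjusted p under 0.05. So did 12.1% of the 39852 genes with an adjusted p there, a larger set than the 20137 genes tested here, so this share and the 22.2% above are not alike. In that table Sema6a had a log2 fold change of 0.42 in favour of adolescents.

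**Figure D2:**
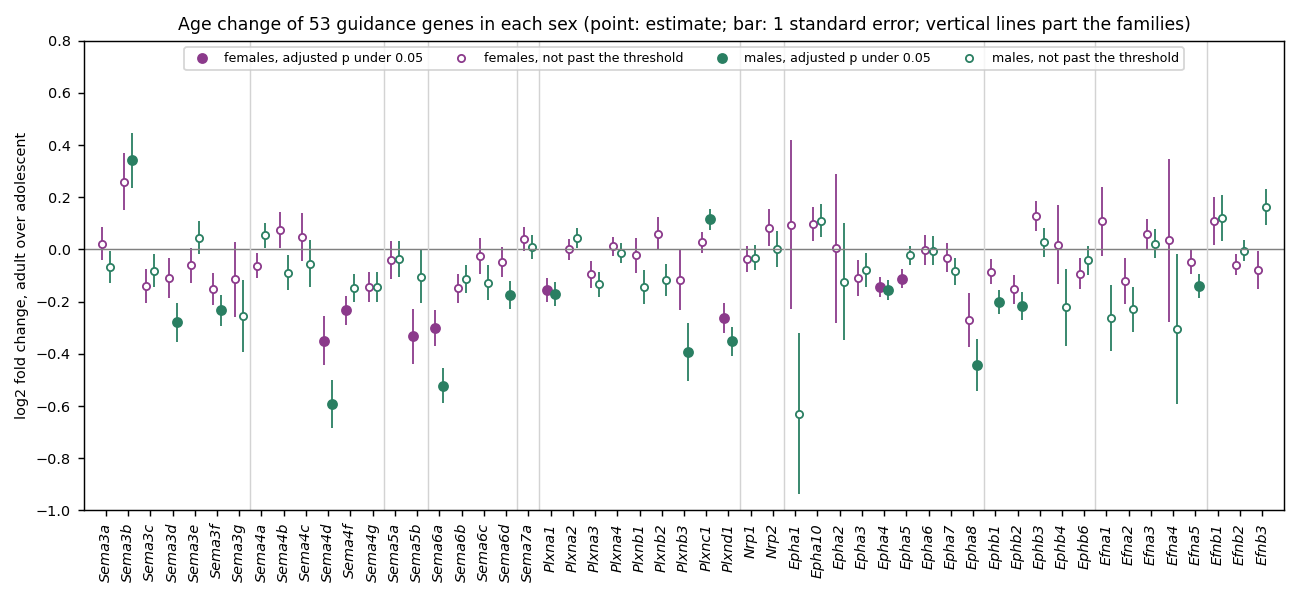
Log2 fold change of each guidance gene, adult over adolescent, in females and males, with bars of 1 SE and filled points for an adjusted p under 0.05. Most filled points lie below 0, with Sema4d and Sema6a in males the lowest of them and Sema3b and Plxnc1 in males the only ones above.

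Promoter sequence is shown for 4 of the genes called lower in adults in 1 sex, to show how far their start regions differ. Sema4f was called in females, and Epha8, Ephb1 and Sema3d were called in males. The sequences are the 250 bases before the RefSeq start of each gene in the rat assembly GRCr8, given on the gene's own strand from 5′ to 3′, and each window lies just outside the span that the count table gives the gene. Capitals mark the GC box, GGGCGG on either strand (CCGCCC when read on the other), a motif bound by Sp-family factors, with overlapping matches counted. The first is chr5:154476967-154477216, minus strand, the second chr4:116995443-116995692, minus strand, the third chr8:111823760-111824009, minus strand, and the fourth chr4:23460972-23461221, minus strand.
Epha8: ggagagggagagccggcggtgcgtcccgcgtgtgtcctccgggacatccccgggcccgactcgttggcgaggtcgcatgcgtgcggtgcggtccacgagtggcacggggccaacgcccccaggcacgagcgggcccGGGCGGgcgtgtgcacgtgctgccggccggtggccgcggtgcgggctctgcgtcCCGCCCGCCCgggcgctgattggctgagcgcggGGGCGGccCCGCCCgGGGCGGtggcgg
Sema4f: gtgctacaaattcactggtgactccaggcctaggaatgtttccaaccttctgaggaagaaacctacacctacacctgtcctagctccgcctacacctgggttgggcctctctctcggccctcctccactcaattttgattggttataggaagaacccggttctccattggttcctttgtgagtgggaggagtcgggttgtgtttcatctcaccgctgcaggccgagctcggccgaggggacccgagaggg
Ephb1: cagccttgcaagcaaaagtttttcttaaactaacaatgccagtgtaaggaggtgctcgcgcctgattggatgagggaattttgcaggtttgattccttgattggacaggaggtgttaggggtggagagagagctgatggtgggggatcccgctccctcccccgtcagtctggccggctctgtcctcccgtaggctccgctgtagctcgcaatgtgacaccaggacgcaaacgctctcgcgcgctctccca
Sema3d: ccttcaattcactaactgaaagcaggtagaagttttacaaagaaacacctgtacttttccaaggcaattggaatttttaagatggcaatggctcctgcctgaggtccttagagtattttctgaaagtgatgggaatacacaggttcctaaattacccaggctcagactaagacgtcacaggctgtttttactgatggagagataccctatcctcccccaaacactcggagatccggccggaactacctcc
Epha8 carried 6 GC boxes and 80% G and C, while Sema4f, Ephb1 and Sema3d carried 0 and had 55.6%, 56.4% and 44.8%. Promoter entries were at hand for 43 of the 53 genes, and 26 of these 43 windows lie at least partly inside the span that the count table gives the gene, where its span starts before the RefSeq start used. Of all 43 windows, 23 (53.5%) held a GC box, against 32.4% of 27457 genes with an entry. Among the genes lower in adults in either sex 3 of 12 held it, and among those not called in either sex 19 of 30. These are counts of letters in a fixed window and were not tested.

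Sema6a (gene 361324, GRCr8 chr18:42237227-42358540, minus strand), a transmembrane ligand of plexin-A2 and plexin-A4 that is also made by oligodendrocytes, had the smallest p of all guidance genes in males. In adolescent males it ran from 46.35 to 110.1 CPM with a median of 62.6, and in adult males from 25.85 to 61.6 with a median of 44.75. The ranges overlapped, yet all 36 adult males lay below the adolescent median. The log2 fold change was -0.52 (SE 0.07, adjusted p = 5.44e-10, edgeR). In females Sema6a ran from 40.5 to 112.4 CPM in adolescents (median 56.5) and from 33.2 to 64.7 in adults (median 46.03), with 30 of 35 adults below the adolescent median and a log2 fold change of -0.30 (SE 0.07, adjusted p = 0.00101, edgeR). The age change in females minus that in males was 0.22 (SE 0.09, adjusted p = 0.924, edgeR). Its receptors Plxna2 and Plxna4 had log2 fold changes of 0.00 (SE 0.04) and 0.01 (SE 0.04) in females and of 0.04 (SE 0.04) and -0.01 (SE 0.04) in males, none called. Libraries did not keep strand, and LOC134482944, LOC134482945 and LOC120098258 overlap Sema6a, so counts of these genes cannot be told apart fully.

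Sema4d (gene 306790, chr17:13582085-13688889, plus strand), the ligand of plexin-B1 and a product of oligodendrocytes and immune cells, had the largest fall among the called genes in each sex. Adolescent males ran from 50.6 to 145.6 CPM (median 82.02) and adult males from 37.5 to 95.8 (median 55.5), and 35 of 36 adults lay below the adolescent median. That was a log2 fold change of -0.59 (SE 0.09, adjusted p = 3.46e-07, edgeR). Adolescent females ran from 45.8 to 154.7 CPM (median 65.7) and adult females from 21.4 to 78.3 (median 58.3), a log2 fold change of -0.35 (SE 0.09, adjusted p = 0.00778, edgeR). In each sex the highest adolescent values lay above every adult, and below them the ranges overlapped. Plxnb1, its receptor, had log2 fold changes of -0.02 (SE 0.07) in females and -0.15 (SE 0.07) in males, neither called. The non-coding LOC134482683 overlaps Sema4d on the other strand.

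Markers of myelinating oligodendrocytes were high in some of the same libraries. Female PF AAE adolescent replicate 2 had the highest Sema6a and the highest Sema4d of adolescent females and the highest summed CPM of the 10 myelinating oligodendrocyte markers there, 21300 against a median of 6214. Male PAE AAE adolescent replicate 4, with the highest Sema4d of adolescent males, had the highest marker sum of that side, 25670. For this sum the library highest in Sema6a ranked 1 of 35 among adult females. Among adolescent males the library highest in Sema6a ranked 4 of 39, and among adult males 11 of 36. The library highest in Sema4d ranked 5 of 35 among adult females and 2 of 36 among adult males. Female PF VEH adult replicate 6, with Sema6a at 63.11 CPM, had a sum of 3360 and ranked 31 of 35. Across sides the sum ran from 2555 to 21300 in adolescent females, 2716 to 13330 in adult females, 3042 to 25670 in adolescent males and 2143 to 18430 in adult males. Its median was 6214 and 6659 in adolescent and adult females, and 8996 and 6333 in adolescent and adult males. The interaction of age and sex called none of the 10 markers (0% of all genes). Of the 10 markers, 10 measured and none at 0 throughout, 1 was called lower in adult females (Ugt8) and 6 were called lower in adult males. Unlike the summed CPM in females, estimates were below 0 for 8 of the 10 markers in females (list median -0.28) and for 9 in males (-0.61). Of 8 oligodendrocyte precursor markers, 2 were called lower in adult females and 3 in adult males, with 0 higher. Over all genes, 4.21% were called lower in adult females and 6.11% in adult males. In bulk tissue, fewer cells of a type and less RNA per cell cannot be told apart. The part of oligodendrocyte content in these differences was not tested.

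Sema4f (gene 29745, chr4:116969137-116995442, minus strand), a class 4 semaphorin found at glutamatergic synapses, ran from 61.4 to 89.7 CPM in adolescent females (median 76.0) and from 12.1 to 86.9 in adult females (median 65.8). The lowest adult value belonged to the library with the fewest genes, and the next lowest was 50.4 CPM. Its log2 fold change was -0.23 in females (SE 0.06, adjusted p = 0.00204, edgeR) and -0.15 in males (SE 0.05, adjusted p = 0.0507, edgeR), where medians were 76.7 and 67.2 CPM. Sema6d, a ligand of plexin-A1, fell by 0.17 in males (SE 0.05, adjusted p = 0.0193, edgeR) and had an estimate of -0.05 (SE 0.06) in females. The non-coding LOC134486432 and LOC120101648 overlap Sema6d on the other strand. Sema5b, a transmembrane semaphorin with thrombospondin repeats, fell by 0.33 in females (SE 0.11, adjusted p = 0.0286, edgeR), and its estimate in males was -0.10 (SE 0.10). It was at 0 in the library with the fewest genes, and the next lowest adult female had 11.9 CPM. Without Female PAE AAE adolescent replicate 1 its adjusted p was 0.0561 (edgeR).

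Secreted class 3 semaphorins went in different directions. Sema3f (gene 315996, chr8:117236269-117265206, minus strand), which acts through Nrp2, had a median of 14.05 CPM in adolescent males (9.13 to 23.3) and 12.4 in adult males (9.03 to 15.8), a log2 fold change of -0.23 (SE 0.06, adjusted p = 0.00296, edgeR). In females it was 14.1 against 12.6 CPM, with a log2 fold change of -0.15 (SE 0.06, adjusted p = 0.112, edgeR). The 2 highest Sema3f values of all, 28.4 and 23.3 CPM, came from the libraries with olfactory markers. Sema3d (gene 246262, chr4:23271815-23460971, minus strand) had medians of 18.02 and 15.8 CPM in adolescent and adult males, ranges of 7.42 to 24.7 and 6.08 to 23.2, and a log2 fold change of -0.28 (SE 0.07, adjusted p = 0.0042, edgeR), with -0.11 (SE 0.08) in females. Sema3b (gene 363142, chr8:117150307-117161570, minus strand) went the other way, from a median of 14.2 CPM in adolescent males (7.68 to 23.3) to 17.4 in adult males (7.54 to 41.8), a log2 fold change of 0.34 (SE 0.10, adjusted p = 0.0169, edgeR). In females its estimate was 0.26 (SE 0.11, adjusted p = 0.123, edgeR), and 27 of 35 adults lay above the adolescent median. The non-coding LOC120094260 overlaps Sema3b on the other strand. The highest Sema3b library, Male PF AAE adult replicate 4, also had the highest sum of meningeal fibroblast markers among adult males, 1251 CPM against a median of 219. For the sum of these markers the library highest in Sema3b ranked 5 of 34 among adolescent females and 2 of 35 among adult females. Among adolescent males the library highest in Sema3b ranked 14 of 39. Of those 8 markers 2 were called with age in males, both lower in adults, where 6.11% of all genes were called lower, and 0 in females. Sema3a, Sema3c, Sema3e and Sema3g were not called in either sex.

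**Figure D3:**
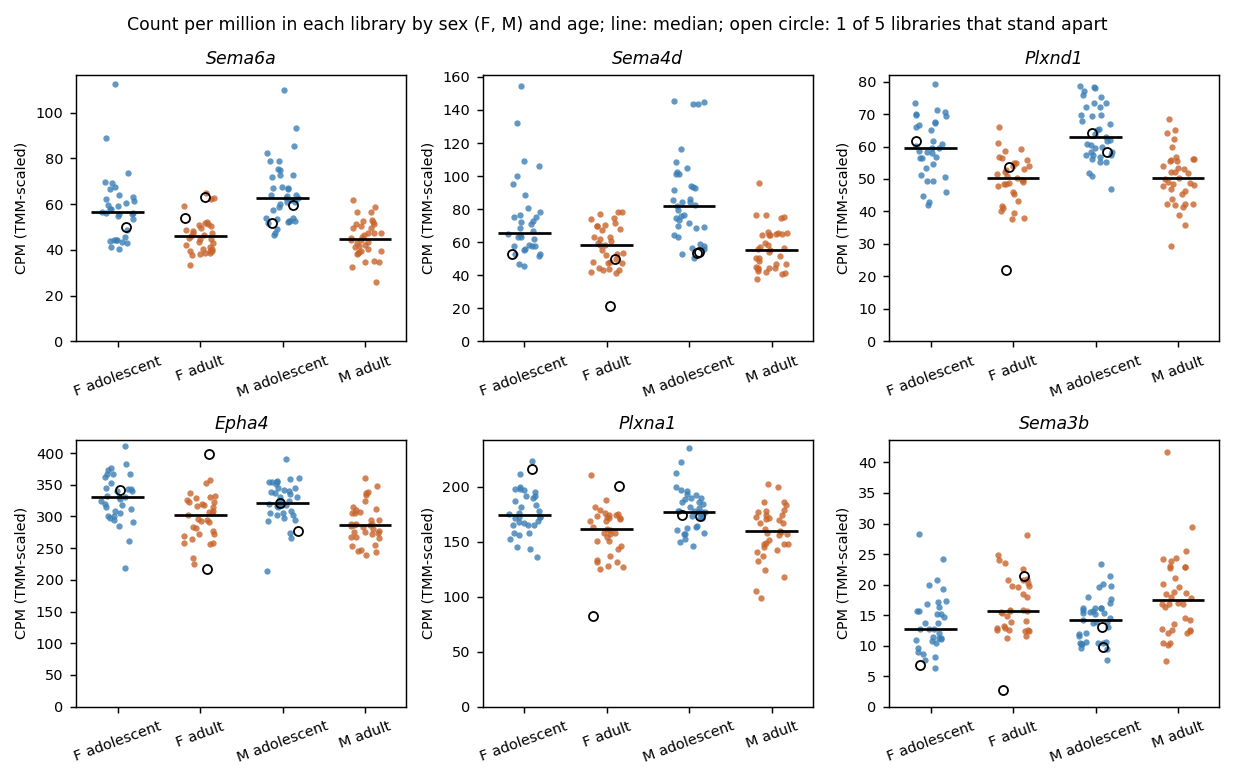
CPM (TMM-scaled) of 6 guidance genes in each library by sex and age, with a line at the median and open circles for the 5 libraries that stand apart. Adult medians lie below adolescent medians for Sema6a, Sema4d, Plxnd1, Epha4 and Plxna1 and above them for Sema3b, and the ranges overlap in every panel.

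Plxnd1 (gene 312652, chr4:150675377-150715706, minus strand), the receptor of Sema3e, which works without a neuropilin and is best known from blood vessels and from synapse choice by projection neurons, was the plexin with the smallest p. It ran from 41.9 to 79.3 CPM in adolescent females (median 59.45) and from 22.04 to 66 in adult females (median 50.4), and 33 of 35 adults lay below the adolescent median. Adolescent males ran from 46.8 to 78.7 CPM (median 62.8) and adult males from 29.3 to 68.4 (median 50.2), again with 33 of 36 adults below. Log2 fold changes were -0.26 in females (SE 0.06, adjusted p = 0.000722, edgeR) and -0.35 in males (SE 0.06, adjusted p = 7.43e-07, edgeR). Its ligand Sema3e had estimates of -0.06 (SE 0.07) and 0.04 (SE 0.06). Over all genes, 4.21% were called lower in adult females and 6.11% in adult males. Endothelial markers, 10 of 10 measured and none at 0 throughout, gave 0 calls in females and 6 lower in adult males. Their sums ran from 97.1 to 333.5 CPM in adolescent and 93.99 to 316.7 in adult females, and from 123.3 to 347 in adolescent and 91.1 to 328 in adult males. Of 4 red blood cell genes, 3 were called lower in adult females and all 4 in adult males, with median sums of 28.0 and 9.07 CPM in adolescent and adult females and 43.2 and 13.7 CPM in males. The part of vessel or blood content in the Plxnd1 difference was not tested.

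Plxna1 (gene 362398, chr4:123295165-123340132, minus strand), a signalling partner of neuropilins for class 3 semaphorins and a direct receptor of Sema6d, had medians of 174.1 and 161.2 CPM in adolescent and adult females, with highest values of 223.6 and 210.8 CPM and 27 of 35 adults below the adolescent median. In males the medians were 177.2 and 159.3 CPM (145.6 to 234.9 and 98.6 to 202.7). The log2 fold changes were -0.16 (SE 0.05, adjusted p = 0.0185, edgeR) and -0.17 (SE 0.04, adjusted p = 0.0042, edgeR). Plxnb3 (gene 363517, chrX:156645505-156660011, plus strand), a receptor of Sema5a found in oligodendrocytes, had medians of 39.05 and 29.9 CPM in adolescent and adult males (22.5 to 77.5 and 15.65 to 53.6), with a log2 fold change of -0.39 (SE 0.11, adjusted p = 0.00932, edgeR). In females its medians were 29.99 and 29.04 CPM and the estimate was -0.12 (SE 0.12, adjusted p = 0.612, edgeR). The interaction of age and sex for Plxnb3 was 0.27 (SE 0.16, adjusted p = 0.966, edgeR). The library with the highest Plxnb3 among adolescent females was again PF AAE replicate 2, the one with the highest oligodendrocyte marker sum. Among adult females the library highest in Plxnb3 ranked 5 of 35 for that sum. Among adolescent males it was 6 of 39, and among adult males 2 of 36. Plxnc1 (gene 362873, chr7:31276978-31430823, minus strand), the receptor of Sema7a, rose by 0.12 in males (SE 0.04, adjusted p = 0.032, edgeR), from a median of 63.2 to 68.2 CPM, and was at 0.03 (SE 0.04) in females. Without Male PAE VEH adult replicate 2 its adjusted p in males was 0.0771 (edgeR). The non-coding LOC120093559 and LOC134479861 overlap Plxnc1 on the other strand. Sema7a itself had estimates of 0.04 (SE 0.05) and 0.01 (SE 0.04). Nrp1 and Nrp2 were called in neither sex, with estimates between -0.04 and 0.08.

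Epha4 (gene 316539, chr9:86263982-86406744, minus strand) was the most abundant Eph receptor among those called. Adolescent females ran from 219.5 to 410.9 CPM (median 331) and adult females from 217.9 to 397.7 (median 302), while adolescent males ran from 213.7 to 389.9 (median 321) and adult males from 239.6 to 359.9 (median 287). In each sex 30 adults lay below the adolescent median. The log2 fold changes were -0.14 (SE 0.04, adjusted p = 0.00817, edgeR) and -0.16 (SE 0.04, adjusted p = 0.00157, edgeR), so the fall was small and alike in size. Among ephrins that bind it, Efna3, Efnb2 and Efnb3 were called in neither sex, with estimates of 0.06, -0.06 and -0.08 in females and 0.02, -0.005 and 0.16 in males. Efna5 fell by 0.14 in males (SE 0.05, adjusted p = 0.0285, edgeR), from a median of 54.2 to 49.1 CPM, and without Male PAE VEH adult replicate 3 its adjusted p was 0.0516 (edgeR). The non-coding LOC120094716 overlaps Epha4 and LOC120094759 overlaps Efna5, both on the other strand.

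Epha8 (gene 60589, chr5:154449566-154476966, minus strand), a receptor of ephrin-A ligands, had the largest fall among the Eph receptors called. Its median went from 8.004 CPM in adolescent males (4.59 to 16.3) to 6.01 in adult males (2.33 to 10.97), a log2 fold change of -0.44 (SE 0.10, adjusted p = 0.00067, edgeR). In females it went from 7.19 to 6.10 CPM with an estimate of -0.27 (SE 0.10, adjusted p = 0.0813, edgeR). Epha5, another ephrin-A receptor, fell by 0.11 in females (SE 0.04, adjusted p = 0.0412, edgeR), with medians of 152.4 and 140.3 CPM, and stood at -0.02 (SE 0.04) in males. Its call in females was lost in 9 of 19 fits that left out 1 library, each from a PAE group of females, with adjusted p up to 0.0732 (edgeR). The other 6 EphA receptors were called in neither sex.

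Ephb1 (gene 24338, chr8:111386432-111823759, minus strand) and Ephb2 (gene 313633, chr5:154179065-154360459, minus strand), receptors of ephrin-B ligands that act at excitatory synapses, were called in males. Ephb1 had medians of 40.3 and 35.8 CPM (30.1 to 49.9 and 26.7 to 44.2), with 32 of 36 adults below the adolescent median and a log2 fold change of -0.20 (SE 0.05, adjusted p = 0.000884, edgeR). Ephb2 had medians of 25.5 and 21.7 CPM (18.9 to 31.3 and 14.9 to 27.8), with 33 of 36 adults below and a log2 fold change of -0.22 (SE 0.05, adjusted p = 0.00197, edgeR). In females the estimates were -0.09 (SE 0.05) for Ephb1 and -0.15 (SE 0.06, adjusted p = 0.0652, edgeR) for Ephb2. The non-coding LOC134487018 overlaps Ephb2 on the other strand. Ephb6, the most abundant EphB receptor, had estimates of -0.09 (SE 0.06) and -0.04 (SE 0.06), not called. Of the ephrins, 1 of 8 was called in males and 0 in females, where 13.1% and 9.02% of all genes were called.

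With edgeR and all libraries, 4 genes called in neither sex passed the threshold when the sexes were pooled, and some of them were also called within a sex under other settings. Sema6b, the most abundant class 6 semaphorin, had medians of 117.9 and 107.4 CPM in adolescent and adult females and 117.1 and 111.2 CPM in males, with estimates of -0.15 (SE 0.05) and -0.11 (SE 0.05) and a pooled log2 fold change of -0.13 (SE 0.04, adjusted p = 0.00593, edgeR). Its lowest value, 18.7 CPM, came from the library with the fewest genes. Sema4g, a class 4 semaphorin, was at -0.14 in each sex, and Plxna3, which passes on class 3 signals with neuropilins, at -0.10 and -0.13. Efna2, an ephrin-A ligand, was at -0.12 (SE 0.09) in females and -0.23 (SE 0.09) in males, on medians of about 4 CPM. Pooled, these 3 genes reached -0.14 (SE 0.04), -0.11 (SE 0.04) and -0.17 (SE 0.06).

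Efnb3, an ephrin-B ligand, had the smallest p of the interaction of age and sex. Its medians were 44.6 and 42.05 CPM in adolescent and adult females and 40.6 and 44.6 CPM in adolescent and adult males, and the ranges overlapped. The age change was -0.08 (SE 0.07) in females and 0.16 (SE 0.07) in males, and the difference of -0.24 (SE 0.10, adjusted p = 0.924, edgeR) did not pass the threshold.

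By family, all 4 class 6 semaphorins had negative estimates in each sex, with 1 called in females and 2 in males. Of the 9 plexins, 2 were called lower in females, and in males 3 were called lower and 1 higher. Of the 9 EphA receptors 2 were called lower in each sex, and of the 5 EphB receptors 0 in females and 2 in males. Class 3 held 0 of 7 calls in females and, in males, 2 lower and 1 higher. Over all genes tested, 9.02% were called in females and 13.1% in males. The families are small, and their counts were not tested against these shares or against each other.

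Within the 6 treatments of each sex the age estimates of Sema6a, Sema4d, Plxnd1, Sema4f and Ephb1 were below 0 in 6 of 6 treatments in females and in 6 of 6 in males. Sema6a ran from -0.37 to -0.18 in females and from -0.93 (PAE AAE) to -0.31 in males. Plxnd1 had the narrowest spread of these in males, from -0.45 to -0.27. Sema3b was above 0 in 5 of 6 treatments in each sex, and Epha8 was below 0 in 4 of 6 in females and 5 of 6 in males. Each of these estimates rests on groups of 4 to 7 libraries. The test of whether the age change differed between AAE and VEH called 0 genes (0% of all genes), as did that between PAE and PF. At an unadjusted p under 0.05 there were 1 and 3 of 53 guidance genes, against 4.2% and 4.91% of all genes. DESeq2 called 0 guidance genes. The smallest p belonged to Sema3f for AAE against VEH (0.22, SE 0.09) and to Efna3 for PAE against PF (0.25, SE 0.10, adjusted p = 0.979, edgeR), neither past the threshold.

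**Figure D4:**
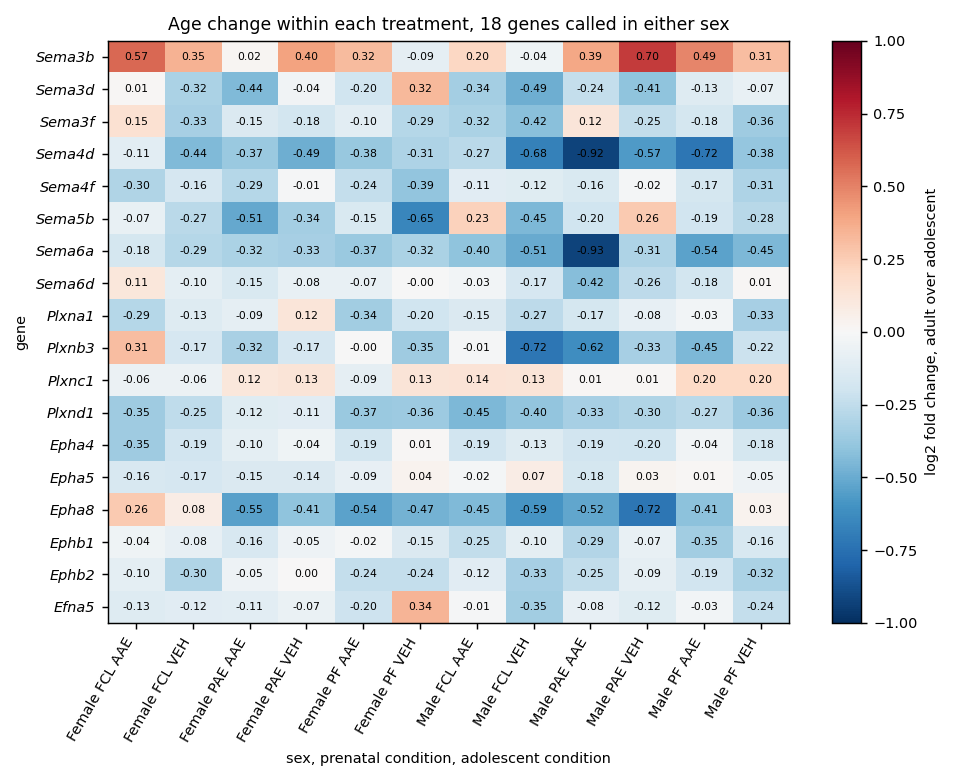
Age change (log2 fold change, adult over adolescent, in the cells) of the 18 guidance genes called in either sex, within each sex and treatment. Sema4d, Sema4f, Sema6a, Plxnd1 and Ephb1 are below 0 in all 12 columns, while Sema3b is above 0 in 10 of them.

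Sex was compared within each age, as female over male. With edgeR 0 guidance genes were called in adolescents, where 0.119% of all genes were, and 0 in adults, where 0.0844% were. At an unadjusted p under 0.05 there were 8 and 1 of 53 guidance genes, against 5.91% and 4.73% of all genes. DESeq2 also called 0 guidance genes. The smallest p in adolescents was that of Efna1, an ephrin-A ligand, at -0.43 (SE 0.13, adjusted p = 0.415, edgeR), with medians of 2.77 CPM in females and 3.84 in males. Plxnb3 followed at -0.37 (adjusted p = 0.42, edgeR). In adults the smallest p was that of Sema5b at -0.22 (SE 0.10, adjusted p = 0.98, edgeR). Of the 49 guidance genes with a median of at least 50 counts, 48 in adolescents and 49 in adults had a 95% interval of the sex difference within 1.5-fold either way.

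The exposures, which the study was designed around, were compared within each sex and age in 16 comparisons: PAE against PF, PAE against FCL and PF against FCL averaged over water and alcohol, and AAE against VEH averaged over the prenatal conditions. Within a sex and age, PAE against PF and PAE against FCL share the PAE libraries and each shares another side with PF against FCL. No guidance gene was called by edgeR in any of the 16, where 0% of all genes were called either. At an unadjusted p under 0.05 the comparisons held between 0 and 8 guidance genes of 52 or 53 tested. Over all genes, between 3.14% and 7.73% were under it. The 8 of 52 came from PAE against FCL in adult females, where 6.42% of all genes were under it. DESeq2 called 0 guidance genes in each of the 16. The filter on low counts left out Efna4 in adolescent females and Epha1 in adult females, and kept all 53 genes in males.

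Averaged over sexes and ages, PAE against PF and PAE against FCL each called 0.0149% of all genes, PF against FCL called 0%, and AAE against VEH called 0.00497%, with 0 guidance genes in each by edgeR and by DESeq2. At an unadjusted p under 0.05 there were 4, 2, 2 and 4 of 53 guidance genes, against 7.61%, 5.29%, 4.05% and 7.57% of all genes. The members with the smallest p were Sema4f for PAE against PF (0.12, SE 0.05, adjusted p = 0.566, edgeR), Efna5 for PAE against FCL (0.09, SE 0.04, adjusted p = 0.881, edgeR), Ephb1 for PF against FCL (-0.11, SE 0.04) and Plxna2 for AAE against VEH (-0.08, SE 0.03, adjusted p = 0.454, edgeR). None passed the threshold. Of the 49 genes with at least 50 counts, the 95% interval lay within 1.5-fold either way for 49 in each of these 4 comparisons.

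Within a sex and age the intervals were wider, and between 41 and 49 of the 49 genes lay within 1.5-fold. The smallest p of the 16 belonged to Sema4b, a class 4 semaphorin, for PF against FCL in adolescent females, at 0.30 (SE 0.07, adjusted p = 0.893, edgeR). In the 12 FCL libraries Sema4b ran from 14.05 to 21.4 CPM with a median of 18.8, in the 12 PF libraries from 19.6 to 28.9 with a median of 21.9, and in the 10 PAE libraries from 16.4 to 25.85 with a median of 21.1. PF libraries lay mostly above FCL libraries, and the ranges overlapped. Sema3b in adolescent males had the next smallest p, for PAE against FCL, at -0.48 (SE 0.12, adjusted p = 0.701, edgeR). Its 13 FCL libraries ran from 10.3 to 21.4 CPM (median 16.2), the 13 PF libraries from 10.5 to 23.3 (median 15.4) and the 13 PAE libraries from 7.68 to 16.1 (median 10.4). PAE libraries were thus the lowest, with ranges that overlapped those of both control conditions. Other members with the smallest p of their comparison included Sema3e for PAE against PF in adult females (-0.35, SE 0.11, adjusted p = 0.585, edgeR), Epha3 for PF against FCL in adult females (-0.41, SE 0.13, adjusted p = 0.671, edgeR) and Sema3c for AAE against VEH in adult females (-0.26, SE 0.09, adjusted p = 0.531, edgeR). Adult females include the library with the fewest genes, a PF VEH library. There Sema3c was among the guidance genes furthest above the median of adult females. Without the 5 libraries that stood apart the count of guidance genes called was still 0 in each of the 16 comparisons.

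**Figure D5:**
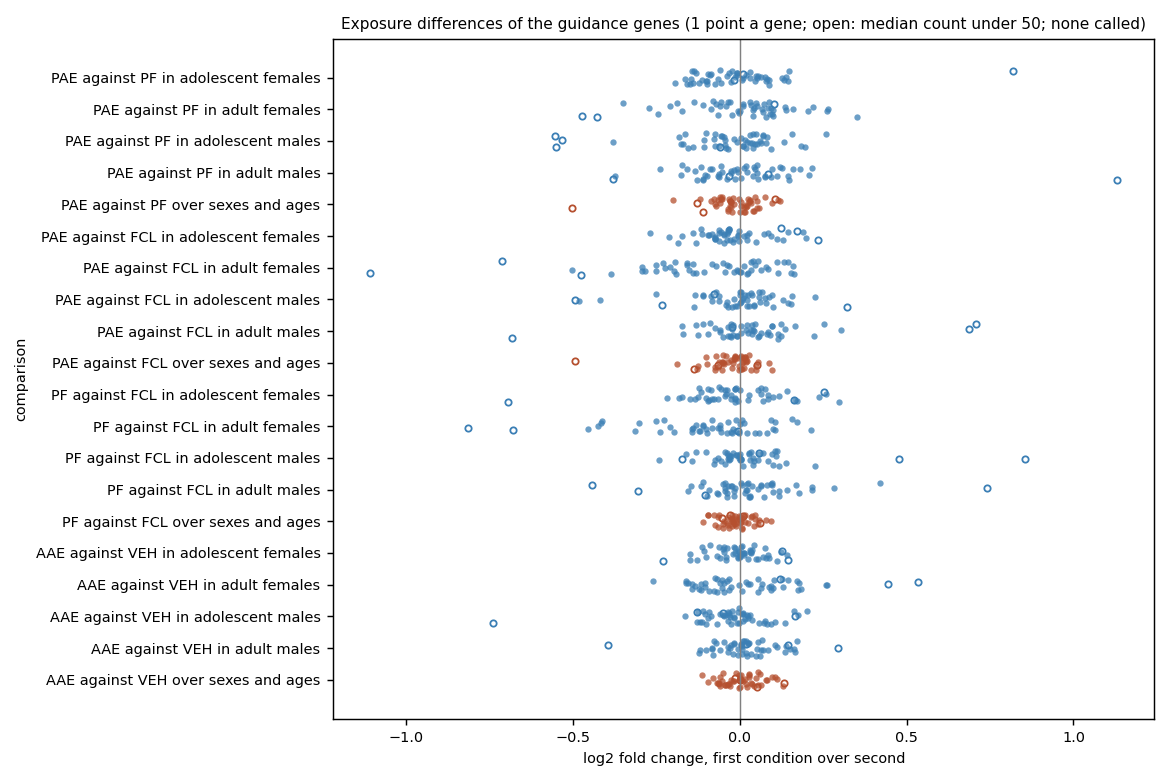
Log2 fold change of each guidance gene in the 16 exposure comparisons within a sex and age (blue) and the 4 over sexes and ages (red-brown), first condition over second, with open points for genes with a median count under 50. The filled red-brown points lie between -0.20 and 0.13, and 0 genes were called in any row.

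The other genes of these pathways were read from lists. Over all genes tested, 4.21% were called lower and 4.81% higher in adult females, and 6.11% lower and 6.95% higher in adult males. Counts per list were not tested against these shares. Of 26 intracellular partners of semaphorin signalling, 7 were called lower and 2 higher in adult females and 7 lower and 1 higher in adult males, with a list median of -0.04 in each sex. Rras2, an R-Ras family GTPase, fell by 0.47 (SE 0.05) in females and by 0.45 (SE 0.05) in males. Met, a receptor tyrosine kinase that pairs with class B plexins, fell by 0.47 (SE 0.06) and 0.50 (SE 0.06), and Dpysl4, a member of the collapsin response mediator family, by 0.28 (SE 0.04) and 0.21 (SE 0.04). Sh3bp1, a GTPase-activating protein downstream of Sema3e and Plxnd1, rose by 0.29 (SE 0.06) and 0.33 (SE 0.05), and Cntn2, an axonal adhesion molecule, by 0.26 (SE 0.08) in females.

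Of 20 partners of Eph and ephrin signalling, 3 were called higher and 0 lower in adult females and 5 higher and 1 lower in adult males. For this and the lists below, the shares over all genes were 4.21% lower and 4.81% higher in females and 6.11% and 6.95% in males. Lists this small can reach such shares with 1 or 2 genes. Sdcbp, an adaptor that binds ephrin-B tails, rose by 0.12 (SE 0.03) and 0.18 (SE 0.02), Itsn1, an exchange factor downstream of EphB2, by 0.12 (SE 0.02) and 0.16 (SE 0.02), and Sipa1l1, a Rap regulator at spines, by 0.19 (SE 0.03) and 0.20 (SE 0.03). Vav2 fell by 0.29 in males (SE 0.10). Of 10 Slit and Robo genes, another guidance system, 3 in females and 4 in males were called, all lower in adults, among them Srgap2 (-0.12 and -0.17), Robo2 (-0.13 and -0.15) and, in males, Robo3 (-0.44, SE 0.14). Of 15 netrin genes and receptors, 2 were called lower in females and 2 lower and 1 higher in males: Dscam was lower in both sexes, Rgmb in females and Neo1 in males, while Ntn4 rose by 0.25 (SE 0.05) in males. Of 9 myelin inhibitors of axon growth, only Mag was called, with a fall of 0.79 (SE 0.17) in males, and it is also one of the oligodendrocyte markers.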

How the data were processed

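RNA-seq libraries of rat anterior cingulate cortex were made from total RNA with random hexamers and without strand marking, per the labels' protocols. The submitters' processing notes name fastp and HISAT2 2.0.5, while for the counting step no tool or setting was stated. The table as deposited holds raw counts per gene, FPKM computed by the authors, and the authors' own comparisons as log2 fold changes with p-values. Coordinates of the 53 genes in it match GRCr8.

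Groups were taken from the labels. Counts were tested with edgeR 4.0.16 in R 4.3.3: TMM scaling, filterByExpr with a minimum count of 10, a robust quasi-likelihood fit, and Benjamini-Hochberg adjustment over all genes tested. Age, sex and pooled exposure contrasts came from 1 fit of all 24 groups, and the 16 exposure comparisons from a fit per sex and age. CPM are TMM-scaled. SE is the log2 fold change divided by the square root of F, and 95% intervals use the normal quantile. Library totals of 10569296 to 34370169 counts limit genes with a median under 50 counts. Alternatives were DESeq2 1.42.0, RLE scaling, no low-count filter, 2 surrogate variables (sva 3.50.0), exclusion of 5 libraries, unexposed libraries only, 1 fit of all libraries for the exposures, and leaving out 1 library in turn. The fit was tested on simulated data.

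The symbol rule that gives the 53 members uses no measured value, but this set of genes and the gene lists (16 lists, 165 genes) were picked for study with earlier results of these data known, and the named list genes are the 3 called genes with the smallest p in each direction. Full values are given for the 12 members with the smallest p for age. Promoter sequences are RefSeq's, GRCr8. Protein sequences were not used here.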

Additional observations from a re-analysis of the deposited data

Results flagged for a closer look

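Within the groups of 4 to 7 libraries, 1 library lay far from the others of its group in 12 of 120 sets of values examined, where chance gives about 1 in 20. The summed CPM of the 53 guidance genes was 3213 in Male FCL AAE adolescent replicate 4 against 3439 to 3560 in the rest of its group. It was 2832 in Male FCL AAE adult replicate 6 (others 3289 to 3597), 2815 in Male PAE AAE adult replicate 4 (3203 to 3336) and 3898 in Male PF VEH adolescent replicate 1 (3385 to 3604). Genes with a count numbered 28008 in Female PF VEH adolescent replicate 4 (others 22660 to 24060), 15631 in Female PF VEH adult replicate 6 (22040 to 23440) and 26658 in Male PF VEH adolescent replicate 6 (23100 to 23980).

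Sema6a was at 63.11 CPM in Female PF VEH adult replicate 6, above the 38.1 to 46.58 of its group, while Plxnd1 was at 22.04 CPM there, below 48.55 to 59.24. Sema4d was at 132.1 CPM in Female PF VEH adolescent replicate 1 (others 45.81 to 66.66) and at 144.6 CPM in Male FCL VEH adolescent replicate 3 (68.54 to 93.1). Plxnd1 was at 75.77 CPM in Male PF VEH adolescent replicate 3 (55.37 to 64.06).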

How the results depend on the processing

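With 2 surrogate variables 13 guidance genes were called with age in females, 1 higher and 12 lower in adults, and 20 in males, where 14.4% and 16.5% of all genes were called. Over the PF VEH and FCL VEH libraries alone the counts were 0 in females and 2 in males; this alternative has far fewer libraries. DESeq2 called 9 in females and 18 in males (10% and 13.8% of all genes), RLE scaling 8 and 17 (9.17% and 13%), and no low-count filter 6 and 14 (3.46% and 5.27%). Leaving out each of the 19 libraries in groups of 4 or 5 in turn, all of them PAE groups, gave 7 to 8 calls in females and 14 to 17 in males. Of the 23 calls of age in either sex, no estimate changed sign under any alternative run. Counting each of the 23 calls once per library left out, the call held 425 times and was lost 12 times, 9 of them for Epha5. Sex, interaction and exposure comparisons called 0 guidance genes in each alternative run. No paired analysis was possible because the labels give replicate numbers without a shared litter, animal or day. Library depth limits Epha1, Epha2, Efna4 and Efna1, whose median counts were under 50.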
